A study of Mus musculus with 4 samples.

Results

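Formyl peptide receptor 2 (Fpr2), the fatty acid receptor Gpr84, the chemerin receptor Cmklr1, the platelet-activating factor receptor Ptafr and formyl peptide receptor 1 (Fpr1) were followed across 4 arrays of mouse peritoneal macrophages. The 5 genes were listed by symbol, and their values are those of every probe set that names only that gene. The platform annotation used here gave such probe sets for 4 of the 5 genes, 6 probe sets among 45101 on the array, and Fpr1 was not analysed here. Of the 4 genes, 3 reached the level floor on at least 1 array, among 12767 of 18193 genes that did. The floor was a log2 value of 6.39, the median of all values in the table. The genes were chosen by measured values of these arrays, Fpr2 and Gpr84 having stood among the lowest genes with interleukin-4 (IL-4) in wild type cells, so the members' own differences are a description and carry no test.

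The cells were drawn into the peritoneal cavity of mice by thioglycolate, an irritant, and kept for 18 hours on plastic slides. The 4 groups were macrophages of mice labelled Dap12-KO with IL-4, Dap12-KO untreated, wild type (WT) with IL-4 and WT untreated, and the age, strain and sex of the mice are not given in the sources used here. Each group was measured on 1 array, so there is no replicate and no test, and precision is limited by this number of arrays. The series' design text calls the loss of DAP12 a knockdown while the sample labels call it a KO, and whether animals were pooled is not stated there.

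These receptors are G protein-coupled receptors by which phagocytes find and react to microbes and injured tissue. Mouse Fpr2 binds formylated peptides of bacteria and mitochondria, and also serum amyloid A, the cathelicidin peptide and annexin A1. Gpr84 responds to medium-chain fatty acids and is known as a gene that macrophages switch on with bacterial stimuli. Cmklr1 binds chemerin and guides macrophages and dendritic cells, and Ptafr binds the lipid platelet-activating factor. Ligand binding releases inhibitory-type G proteins in most of them, which leads through phosphoinositide 3-kinase gamma and small GTPases to migration and to the oxidative burst. DAP12, encoded by Tyrobp, is an adaptor that passes signals of other surface receptors through its ITAM motif, and IL-4 drives alternative activation of macrophages.

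The 250 bases before the annotated start of the 3 receptor genes above the floor are shown because Fpr2 and Gpr84 were both lower with IL-4 in WT cells, and Cmklr1 was not lower by 2-fold there. They are RefSeq sequences of build GRCm38.p6, 5′ to 3′ on the strand of the gene, and capitals mark GGAA, the core that PU.1 and other ETS factors read, on either strand (TTCC).
Fpr2, chr17:17887574-17887823, plus strand: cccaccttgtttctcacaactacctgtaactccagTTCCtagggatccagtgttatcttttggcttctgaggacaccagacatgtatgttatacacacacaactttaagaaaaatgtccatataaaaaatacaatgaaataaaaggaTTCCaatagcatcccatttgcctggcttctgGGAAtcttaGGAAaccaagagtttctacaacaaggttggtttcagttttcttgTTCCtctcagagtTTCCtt
Gpr84, chr15:103310439-103310688, minus strand: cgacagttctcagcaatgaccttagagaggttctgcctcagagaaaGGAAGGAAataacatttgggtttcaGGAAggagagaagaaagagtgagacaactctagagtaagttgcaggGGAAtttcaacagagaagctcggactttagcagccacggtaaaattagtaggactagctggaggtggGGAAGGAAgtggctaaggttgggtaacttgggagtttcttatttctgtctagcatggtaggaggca
Cmklr1, chr5:113643604-113643853, minus strand: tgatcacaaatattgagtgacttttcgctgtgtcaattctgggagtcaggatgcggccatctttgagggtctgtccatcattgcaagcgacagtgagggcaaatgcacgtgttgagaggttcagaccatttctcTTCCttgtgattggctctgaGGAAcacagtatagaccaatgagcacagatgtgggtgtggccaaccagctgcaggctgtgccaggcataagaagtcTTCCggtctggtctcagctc

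GGAA occurred 6 times before Fpr2, 6 times before Gpr84 and 3 times before Cmklr1, with overlaps counted, where the median of 32851 promoters of the same length was 3 and 93.4% held at least 1. Of all promoters 91.3% held fewer than 6 and 3.82% held more than 6, and the rest held 6 as Fpr2 and Gpr84 did. This core was picked after the sequences had been seen. None of 5 longer motifs, searched on both strands, was found in these windows. They were TTCNNNNGAA, as bound by STAT6 (in 5.85% of all promoters), TGANTCA of AP-1 (6.75%), GAGGAAG of PU.1 (10.6%), TTGCNNAA of C/EBP factors (9.56%) and the NF-kB motif (7.25%). GGAA lies inside the PU.1 motif searched. For STAT6 only the spacing shown was searched, so sites of another spacing are not covered.

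The 4 arrays differed in ways that touch these values. The middle 50% of values spanned 2.54 log2 units on the Dap12-KO array with IL-4, and 3.19 to 3.25 on the other 3. The array's own median was 6.48 for Dap12-KO with IL-4, above the floor, and 6.33 to 6.37 for the other 3, below it. The median gene differed by −0.40 between the Dap12-KO arrays (IL-4 minus untreated) and by −0.39 between the IL-4 arrays (Dap12-KO minus WT), against −0.03 for IL-4 in WT and 0.03 between the untreated arrays. Tyrobp, the targeted gene, read 13.27 and 14.03 on the arrays labelled Dap12-KO with IL-4 and untreated, against 14.13 and 14.39 on the WT arrays with IL-4 and untreated. This signal goes against the label, although a probe set outside the deleted part would check nothing, and each direction between genotypes rests on the labels. All 7 measured macrophage markers of 8 listed were above the floor on every array. Of 10 measured neutrophil markers, which matter here because neutrophils also carry Fpr2, 7 and 4 were at or above the floor on the arrays labelled Dap12-KO with IL-4 and untreated, and 3 and 3 on the WT arrays with IL-4 and untreated. The mean level of the neutrophil list was 7.15, 6.91, 6.87 and 6.85 in the same order, and the neutrophil genes S100a9 and Lcn2 were below the floor on all 4 arrays. All 3 measured B cell markers were above the floor, with means of 8.34 and 9.06 on the arrays labelled Dap12-KO and 8.43 and 8.22 on the WT arrays, IL-4 first. The part of these other cells in the receptor values was not tested, and in bulk RNA fewer cells of a type and less RNA per cell cannot be told apart.

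Fpr2 was bright in untreated WT macrophages and stood at the floor on both IL-4 arrays. Its only probe set read 6.42 in cells labelled Dap12-KO with IL-4, 8.75 on the untreated Dap12-KO array, 6.47 on the WT array with IL-4 and 10.26 on the untreated WT array. The untreated arrays were thus the higher ones in both genotypes, with WT above Dap12-KO, and the 2 IL-4 arrays were level with each other. The neutrophil and monocyte gene S100a8 read 7.86 and 9.52 in Dap12-KO with IL-4 and untreated, and 9.20 and 10.09 in WT with IL-4 and untreated, so it too was highest on the untreated WT array. Csf3r, the granulocyte colony-stimulating factor receptor, was the brightest gene of the neutrophil list on 3 of the 4 arrays. It went the other way, at 11.33 and 11.20 in Dap12-KO and 10.84 and 9.68 in WT in the same order. The mean of that list was nearly level between the WT arrays, at 6.87 with IL-4 and 6.85 untreated. Mmp8 of that list differed by −0.86 untreated and −1.53 with IL-4, Dap12-KO minus WT. Of the 7 genes of the list that passed the floor, 1 was higher and 0 lower in Dap12-KO at 2-fold untreated, beside 3.12% and 3.41% of all genes. With IL-4, 1 was higher and 2 lower, beside 10.9% and 17.6%. The part of these genes in the Fpr2 values was not tested.

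With IL-4 the Fpr2 level differed by −2.32 on the arrays labelled Dap12-KO (5.01-fold lower) and by −3.78 in WT (13.8-fold lower). Because both IL-4 values sat at the floor, these sizes rest on readings at background. Between Dap12-KO and WT the level differed by −0.05 with IL-4 and by −1.51 without treatment (2.84-fold lower). The IL-4 difference was therefore 1.46 log2 units less negative on the arrays labelled Dap12-KO than in WT. After cyclic loess, a scaling that removes trends with brightness between arrays, the Fpr2 differences were −1.80 for IL-4 on the Dap12-KO arrays, −3.74 for IL-4 in WT, 0.50 between the IL-4 arrays and −1.43 between the untreated arrays.

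**Figure D1:**
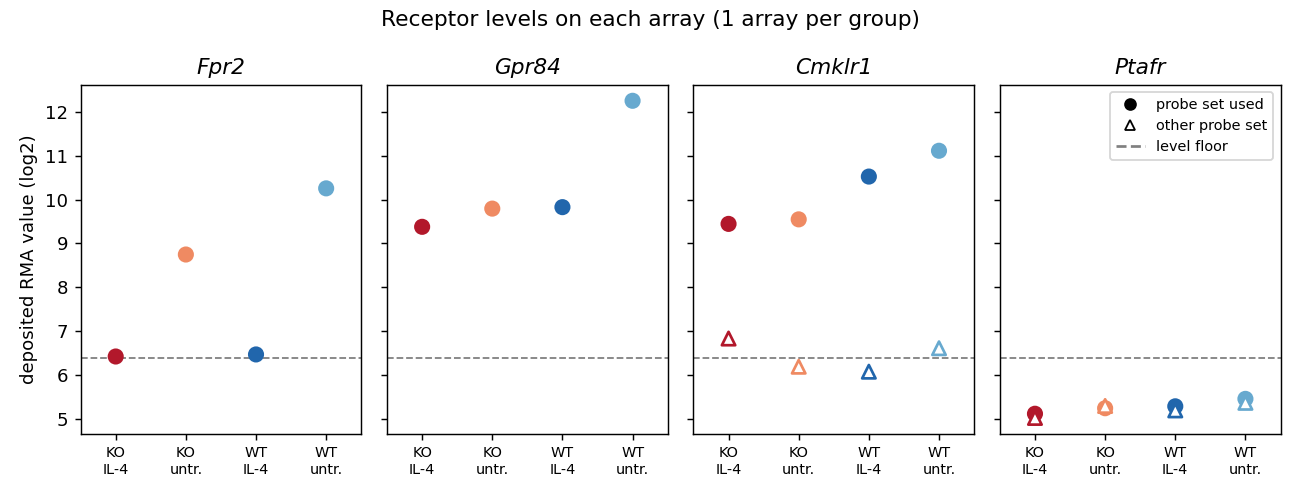
Deposited log2 RMA values (vertical axis) of the 4 receptor genes on each array, with Dap12-KO (KO) in red tones and wild type (WT) in blue, 1 point per array and probe set. Filled circles are the probe set used for the gene, open triangles its other probe set, and the dashed line is the level floor of 6.39. The untreated (untr.) WT array holds the highest value of Fpr2 (10.26), Gpr84 (12.25) and the bright Cmklr1 probe set (11.11), and Ptafr lies below the floor on every array.

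Gpr84 stood apart on 1 array, untreated WT. Its only probe set read 9.38 in cells labelled Dap12-KO with IL-4, 9.79 on the untreated Dap12-KO array, 9.83 on the WT array with IL-4 and 12.25 on the untreated WT array. The first 3 of these lay close together and well above the floor, so the size of the WT difference does not rest on background. The untreated Dap12-KO array and the WT array with IL-4 held nearly equal levels.

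For Gpr84 the IL-4 difference was −0.41 on the arrays labelled Dap12-KO (1.33-fold lower) and −2.42 in WT (5.36-fold lower). The median gene also differed by −0.40 between those Dap12-KO arrays, and the Gpr84 value there became 0.23 after cyclic loess. The genotype difference, Dap12-KO minus WT, was −0.45 with IL-4, or 0.26 after cyclic loess, and −2.46 untreated (5.49-fold lower in Dap12-KO). The IL-4 differences of the 2 genotypes were 2.01 apart as deposited and 2.61 after cyclic loess, the less negative one being that of Dap12-KO in both. With a single array in each group, this gap has no measured error.

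As deposited, Cmklr1 followed the genotype labels more than IL-4 by the brighter of its probe sets. Its bright probe set read 9.45 and 9.55 on the arrays labelled Dap12-KO with IL-4 and untreated, and 10.52 and 11.11 on the WT arrays with IL-4 and untreated. Both Dap12-KO values were below both WT values. Between Dap12-KO and WT the level differed by −1.08 with IL-4 (2.11-fold lower) and by −1.56 without treatment (2.95-fold lower). The value with IL-4 was −0.36 after cyclic loess and −0.41 after quantile normalization. IL-4 differences were −0.10 on the arrays labelled Dap12-KO, where cyclic loess gave 0.55, and −0.59 in WT, where it gave −0.55. After cyclic loess both were thus larger in size than the genotype difference with IL-4, but smaller than the untreated genotype difference of −1.46.

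The other Cmklr1 probe set was dim and did not share this pattern. It read 6.83 and 6.19 on the arrays labelled Dap12-KO with IL-4 and untreated, and 6.08 and 6.61 on the WT arrays with IL-4 and untreated, so that only 2 of its 4 values reached the floor. Its difference between Dap12-KO and WT was 0.76 with IL-4 and −0.42 untreated. The annotation does not say which transcripts of the gene either probe set reads.

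Ptafr was below the floor on every array by both of its probe sets. The brighter one read 5.12 and 5.25 on the arrays labelled Dap12-KO with IL-4 and untreated, and 5.29 and 5.46 on the WT arrays with IL-4 and untreated, and the other lay between 5.03 and 5.37. Values this far below the floor have no order that can be read, and no difference of Ptafr is given as a result.

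Of the rest of the formyl peptide receptor family, 2 of 5 listed genes had a probe set. Fpr-rs3 lay between 5.12 and 5.41 and was below the floor on all arrays. Fpr-rs4 passed the floor only in cells labelled Dap12-KO with IL-4, at 6.52, and read 5.83 on the untreated Dap12-KO array, 5.79 on the WT array with IL-4 and 5.99 on the untreated WT array. Of the 3 family members measured, Fpr2 was the one with a signal clear of the floor, on the untreated arrays.

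Counted at 2-fold, Fpr2 and Gpr84 were lower with IL-4 in WT, where 1.25% of all genes were. On the arrays labelled Dap12-KO, Fpr2 was lower by 2-fold with IL-4, as were 17.6% of all genes. Without treatment, Fpr2, Gpr84 and Cmklr1 were all lower in Dap12-KO than in WT, where 3.41% of all genes were. With the median over its probe sets Cmklr1 stood at −0.99 there, just inside 2-fold, which left 2 of these genes lower. Between the IL-4 arrays Cmklr1 alone of the 4 genes was lower in Dap12-KO, beside 17.6% of all genes. In the difference of IL-4 responses, Dap12-KO minus WT, Fpr2 and Gpr84 were higher by 2-fold, beside 8.15% of all genes. These contrasts chose the list, and several of them share the untreated WT array, so a high value on that array enters more than 1 of them.

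**Figure D2:**
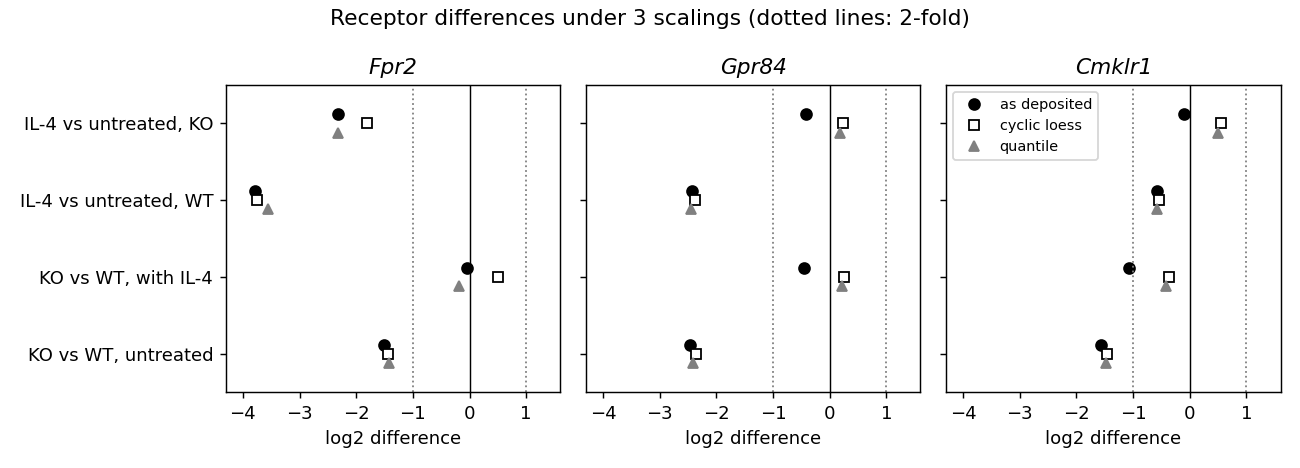
Log2 differences (horizontal axis) of the probe set used for Fpr2, Gpr84 and Cmklr1 in 4 comparisons of 2 arrays each, as deposited and after cyclic loess or quantile normalization, with dotted lines at 2-fold. The 3 scalings lie close together for IL-4 in WT and for untreated Dap12-KO against WT, and spread wherever the Dap12-KO array with IL-4 enters, as for Gpr84, which reads −0.41 as deposited and 0.23 after cyclic loess for IL-4 in Dap12-KO.

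Other receptors for chemoattractants and lipid mediators did not follow Fpr2 and Gpr84 as a group with IL-4 in WT. Of 27 listed, 24 had a probe set and 19 passed the floor. With IL-4 in WT, 2 of the 19 were higher and 1 lower at 2-fold, where 1.21% and 1.25% of all genes were, and their median difference was 0.06, against −0.03 over all genes. The leukotriene B4 receptor Ltb4r1 read 10.30 with IL-4 and 7.92 untreated in WT, a difference of 2.38. The prostaglandin E2 receptor Ptger2 read 10.13 with IL-4 and 8.87 untreated, a difference of 1.26. Both were thus on the opposite side from Fpr2, while the acid-sensing receptor Gpr65, at 10.69 with IL-4 and 9.69 untreated, lay just under 2-fold. Ccrl2, an atypical receptor that presents chemerin to Cmklr1-bearing cells, was the one on the same side as Fpr2.

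As deposited, Ccrl2 differed from the bright Cmklr1 probe set in what it followed. It read 8.79 in cells labelled Dap12-KO with IL-4, 10.83 on the untreated Dap12-KO array, 8.58 on the WT array with IL-4 and 10.57 on the untreated WT array. The IL-4 arrays were low in both genotypes, with differences of −2.04 in Dap12-KO and −1.99 in WT, and as deposited the genotypes were within 0.26 log2 units of each other in either treatment. After cyclic loess the IL-4 difference of Ccrl2 was −1.38 on the arrays labelled Dap12-KO and −1.95 in WT. The genotype difference with IL-4 was 0.21 as deposited, 0.94 after cyclic loess and 0.83 after quantile normalization.

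Without treatment, 3 of the 19 receptors were higher and 5 lower in Dap12-KO at 2-fold, beside 3.12% and 3.41% of all genes, with a median difference of −0.61 against 0.03 over all genes. Over all 24 measured receptors the median was −0.15. Hcar2, a receptor for hydroxybutyrate and niacin, read 7.18 in untreated Dap12-KO and 9.26 in untreated WT, a difference of −2.08. The prostacyclin receptor Ptgir differed by −1.36. The chemokine receptor Cxcr4 went the other way with 2.31, at 10.35 in untreated Dap12-KO against 8.04 in untreated WT, and Ptger2 differed by 1.56. With IL-4, 1 receptor was higher and 6 lower in Dap12-KO than in WT, where 10.9% and 17.6% of all genes were, and the lower ones included Ltb4r1 (−2.10), the complement C5a receptor C5ar1 (−1.92) and the cysteinyl leukotriene receptor Cysltr1 (−1.62). After cyclic loess 0 of the 19 were higher and 3 lower, beside 12.6% and 5.51% of all genes. These 3 were Ltb4r1 (−1.45), the receptor Gpr132 (−1.23) and C5ar1 (−1.19), while Cysltr1 at −0.98 lay just inside 2-fold. Other probe sets of these genes changed the list. The other Gpr132 probe set, above the floor only in Dap12-KO with IL-4, went the opposite way, at 1.18 after cyclic loess. The Gpr132 probe set used reached the floor only on the WT arrays. After the same scaling the other C5ar1 probe set read −0.64, inside 2-fold, and the other Cysltr1 probe set −1.42, beyond it.

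IL-4 on the arrays labelled Dap12-KO was accompanied by 1 receptor higher and 5 lower of the 19, beside 8.04% and 17.6% of all genes, with a median of −0.24 against −0.40 over all genes. After cyclic loess the balance turned, with 5 of the 19 higher and 3 lower, beside 9.95% and 6.07% of all genes, and a median of 0.41. With the floor set anew after that scaling the median of the list was 0.25. The 5 were Hcar2 (1.66), Ltb4r1 (1.49), Gpr35 (1.33), Ptgir (1.33) and the fatty acid receptor Ffar4 (1.08), and the 3 were Cxcr4, C5ar1 and Ccrl2. As deposited, Cxcr4 read 6.84 with IL-4 and 10.35 untreated there, a difference of −3.51. C5ar1 differed by −2.06 and was lower in WT by less than 2-fold, at −0.78. By the probe sets used, both kept their side of 2-fold on those arrays after cyclic loess, at −2.94 and −1.39. The other C5ar1 probe set, above the floor on all 4 arrays, read −1.39 there as deposited and −0.75 after cyclic loess, inside 2-fold. The chemokine receptor Ccr2 differed by −1.29 there, or by −0.70 after cyclic loess, inside 2-fold, and by 0.80 in WT.

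Among ligands and the enzymes that make or remove them, 15 of 17 genes passed the floor and most lay inside 2-fold. With IL-4 in WT 0 were higher and 1 lower of the 15, beside 1.21% and 1.25% of all genes, with a median difference of −0.05. The lower one was Lpcat2, an enzyme that makes platelet-activating factor, which read 8.71 and 10.41 in Dap12-KO with IL-4 and untreated, and 8.93 and 10.06 in WT with IL-4 and untreated. It was thus low with IL-4 in both genotypes, with differences of −1.70 in Dap12-KO and −1.13 in WT. Pla2g7, which degrades that lipid, differed by −1.15 and −0.26 in the same order, the Dap12-KO value being −0.65 after cyclic loess. Annexin A1 (Anxa1) was bright throughout by the probe set used, between 14.11 and 14.65. Saa3, an inducible serum amyloid A of macrophages, lay between 13.35 and 13.95, and by these probe sets neither gene shared the Fpr2 pattern. The other Anxa1 probe set was dimmer but above the floor, at 8.60 and 8.51 in Dap12-KO and 9.74 and 9.38 in WT, IL-4 first. Between genotypes it differed by −1.14 with IL-4, or −0.42 after cyclic loess, and by −0.87 untreated.

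Saa1 and Camp, which encode peptide ligands of Fpr2, were highest in cells labelled Dap12-KO with IL-4. Saa1 read 8.53 there, 6.60 on the untreated Dap12-KO array, 5.49 on the WT array with IL-4 and 5.47 on the untreated WT array, by a probe set whose name marks it as shared among similar transcripts, while its other probe set stayed below the floor. Camp, the cathelicidin gene known from neutrophils, read 8.20, 6.72, 5.89 and 6.54 in that order. The probe sets of chemerin (Rarres2), the Cmklr1 ligand, disagreed. The brightest lay between 7.82 and 8.37. Another, also marked as shared among similar transcripts, read 8.17 in Dap12-KO with IL-4 and 6.64 untreated, against 6.60 and 6.48 in WT with IL-4 and untreated, so that it too was highest on that array (1.53, 2.88-fold higher with IL-4 in Dap12-KO), and the third was below the floor on all 4. More neutrophil markers were at or above the floor on the same array, 7 of 10. However, the median value of that array was 6.48, above the floor, against 6.33 to 6.37 on the others. Counts of eosinophil markers and of mesothelium and fibroblast markers were also highest there, at 2 of 5 each. The counts of the other marker lists were the same on every array. The part of neutrophil markers in these values was not tested.

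Signalling genes shared by these receptors were shifted little by IL-4 in WT. Of 23 genes for G proteins and proximal signalling 21 were measured and all 21 passed the floor, of which 0 were higher and 1 lower, beside 1.21% and 1.25% of all genes, with a median difference of −0.33 against −0.03 over all genes. The lower one was Fgr, a Src family kinase of phagocytes, at 10.68 and 10.82 in Dap12-KO with IL-4 and untreated, and 10.75 and 11.78 in WT with IL-4 and untreated. As for Gpr84, the untreated WT array was the high one. The kinase Mapkapk2 and the catalytic subunit Pik3cg of phosphoinositide 3-kinase gamma differed by −0.81 and −0.70 in WT. On the arrays labelled Dap12-KO 0 of the 21 were higher with IL-4 and 4 lower, a share near the 17.6% of all genes that were lower there (8.04% were higher), among them the exchange factors Vav1 (−1.65) and Prex1 (−1.15) and Pik3cg (−1.57), and of these 3 the loess values were −0.98, −0.48 and −0.91. After cyclic loess 1 of the 21 was higher and 0 lower, beside 9.95% and 6.07% of all genes.

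Between the untreated arrays 1 of the 21 signalling genes was higher and 2 lower in Dap12-KO, beside 3.12% and 3.41% of all genes, with a median of −0.02. Gna15, the alpha subunit that couples many chemoattractant receptors to phospholipase C, read 8.32 in untreated Dap12-KO and 9.81 in untreated WT, a difference of −1.49. Gnb4 differed by −1.05, or by −0.95 after cyclic loess, and Pik3r5, a regulatory subunit of phosphoinositide 3-kinase gamma, by 1.22. With IL-4, Gnb4 differed by −2.25 between Dap12-KO and WT, or by −1.54 after cyclic loess. Its other probe sets, above the floor on all arrays, disagreed. By 1 of them the difference was −1.02 with IL-4, or −0.78 after cyclic loess, and −1.38 untreated. By the other, which was dim, it was −0.05 with IL-4 and −0.04 untreated. Pik3cg differed by −1.10, and by −0.39 after cyclic loess and −0.60 after quantile normalization, both inside 2-fold.

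Of 15 genes that switch such receptors off, 14 were measured and passed the floor, and in WT with IL-4 0 were higher and 0 lower at 2-fold, beside 1.21% and 1.25% of all genes. The beta-arrestin Arrb2 and the G protein regulators Rgs14 and Rgs16 differed by −0.81, −0.79 and −0.77. Of the 14, Rgs16 alone differed by 2-fold between the untreated arrays, at 7.06 in Dap12-KO and 9.31 in WT, a difference of −2.25. Of all genes 3.12% were higher and 3.41% lower in Dap12-KO between these arrays. On the arrays labelled Dap12-KO 0 of the 14 were higher with IL-4 and 5 lower, beside 8.04% and 17.6% of all genes, led by Rgs18 (−2.01) and Arrb2 (−1.82). After cyclic loess these read −1.35 and −1.17, and 2 of the 14 were lower, beside 6.07% of all genes.

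The phagocyte oxidase, which makes superoxide after receptor engagement, differed with IL-4 in its inducible parts. Of 5 listed subunits 4 were measured, and 2 of the 4 were lower with IL-4 in each genotype, where 17.6% of all genes were lower in Dap12-KO and 1.25% in WT, so the 2 counts have unlike backgrounds. The list medians were −0.88 in Dap12-KO and −0.74 in WT against −0.40 and −0.03 over all genes. The organizer Ncf1 read 12.08 and 13.33 in Dap12-KO with IL-4 and untreated, and 11.03 and 12.87 in WT with IL-4 and untreated. The catalytic subunit Cybb read 12.61 and 13.83 in Dap12-KO with IL-4 and untreated, and 12.69 and 13.76 in WT with IL-4 and untreated. Both were low on both IL-4 arrays, with differences of −1.25 and −1.22 in Dap12-KO and −1.83 and −1.08 in WT. After cyclic loess they were −0.73 and −0.78 in Dap12-KO, inside 2-fold. Untreated, 0 of the 4 differed by 2-fold between genotypes, where 3.12% of all genes were higher and 3.41% lower in Dap12-KO.

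**Figure D3:**
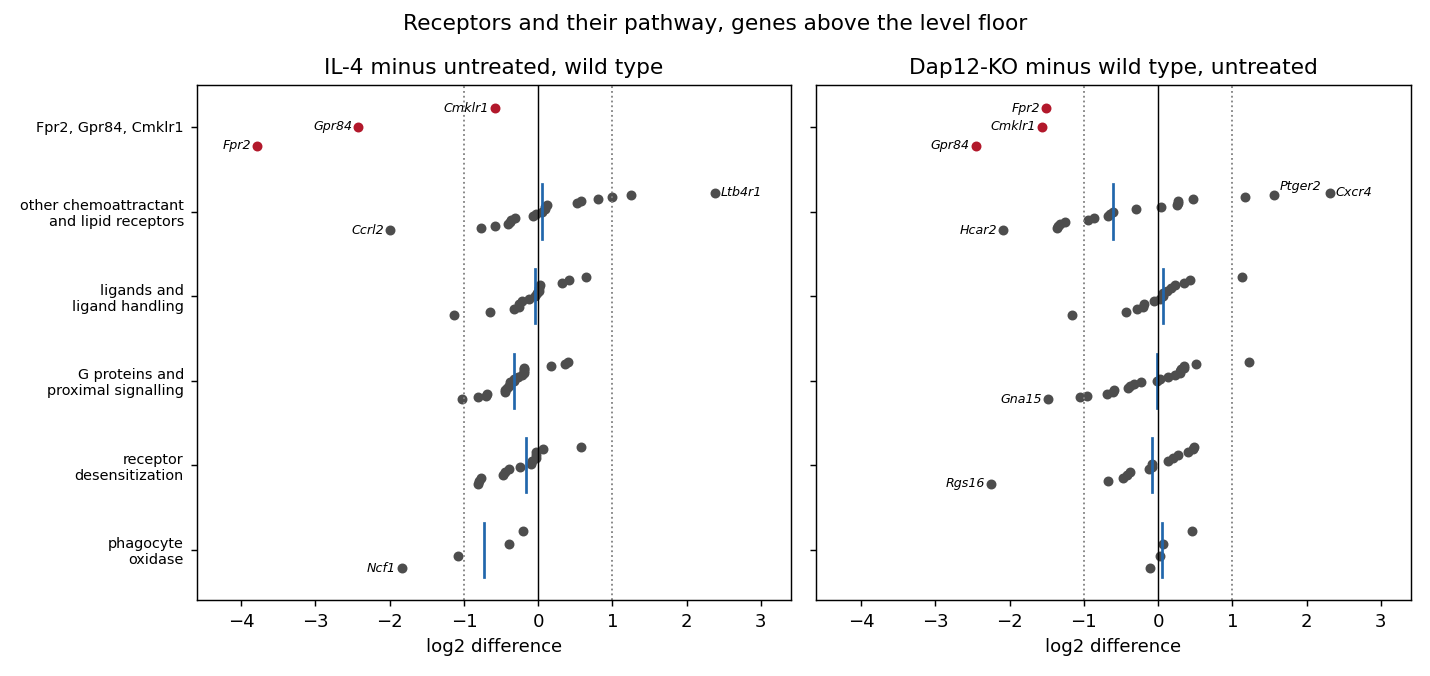
Log2 differences (horizontal axis) of Fpr2, Gpr84 and Cmklr1 in red and of the listed pathway genes above the level floor in grey, 1 point per gene, for IL-4 minus untreated in WT and for Dap12-KO minus WT untreated. Blue bars are list medians, dotted lines mark 2-fold, and genes beyond 1.4 are named. List medians lie between −0.74 and 0.06 with IL-4 and between −0.61 and 0.07 between genotypes, and Ltb4r1 (2.38) and Ccrl2 (−1.99) are the grey receptors farthest out with IL-4.

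The genes most like each receptor over the 4 arrays were sought by the root mean square distance between values centred on each gene's own mean, among the other 12766 genes above the floor. Nearest to Gpr84 were haptoglobin (Hp), the receptor Treml4 and the GTPase regulator Arap3, at distances of 0.31, 0.34 and 0.36 log2 units. After cyclic loess Hp stayed the nearest, while Treml4 and Arap3 ranked 5 and 15. Hp read 8.58 and 9.81 in Dap12-KO with IL-4 and untreated, and 9.43 and 12.11 in WT with IL-4 and untreated, so the untreated WT array was again the high one. Treml4 lay below the floor on the other 3 arrays.

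Nearest to Fpr2 were Cd24a, Hp and Clec4e at 0.68, 0.68 and 0.69, so none lay as close as the nearest genes of Gpr84 and Cmklr1 did to theirs. Clec4e, a receptor for mycobacterial glycolipid, read 11.57 and 12.96 in Dap12-KO with IL-4 and untreated, and 11.64 and 13.77 in WT with IL-4 and untreated. It shared with Fpr2 near equal levels on the IL-4 arrays. Nearest to Cmklr1 were Nfkbid, an IkB family protein of the nucleus, the arginine deiminase Padi2 and the cell cycle inhibitor Cdkn2b, at 0.07, 0.07 and 0.10, which ranked 3, 2 and 5 after cyclic loess. Nfkbid read 9.66 and 9.86 in Dap12-KO with IL-4 and untreated, and 10.88 and 11.53 in WT with IL-4 and untreated. With 4 arrays many genes can lie this close, and the likeness is given as a description.

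**Figure D4:**
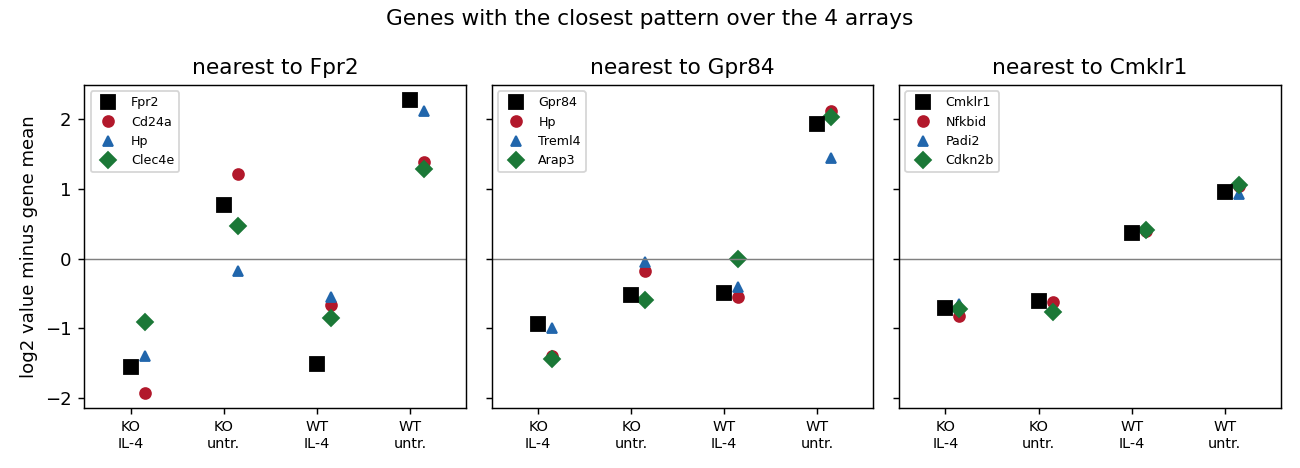
Log2 values minus each gene's own mean (vertical axis) on the 4 arrays for Fpr2, Gpr84 and Cmklr1 (black squares) and the 3 genes with the smallest distance to each (coloured). Gpr84 and its nearest genes are high on the untreated WT array, the genes nearest to Cmklr1 overlie it, and those nearest to Fpr2 lie 0.68 to 0.69 away.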

How the data were processed

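Total RNA of 4 mouse macrophage samples was hybridised to 1-colour Affymetrix arrays after 2 cycles of amplification, per the labels' protocols. The authors deposited log2 values per probe set, and the submitters' processing notes name RMA without a version. Amplification and RMA can each change how large a difference reads. Without probe-level files here, no value has a detection call.

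Names of probe sets came from the platform annotation in GEO, brought up to date by Entrez identifier to the RefSeq table of GRCm38.p6, where 34741 of 34945 probe sets naming 1 gene matched. For each gene the probe set with the highest mean was used, and a gene was counted where its highest value reached the floor of 6.39, the median of all values. Differences of log2 values were counted at 2-fold or more, with no test, since each group had 1 array. List counts after cyclic loess cover the genes that passed the floor as deposited. The shares of all genes after it cover the 12446 genes that passed a floor set anew. Named genes were all members, up to 4 genes of each list with the largest difference per comparison, small lists whole, the 3 nearest genes of each member, and Tyrobp. Anxa1, Saa3, Rarres2, the receptors counted after cyclic loess and the values of Cxcr4, C5ar1 and Pla2g7 outside their own comparisons were given after being seen. The members and lists were chosen with earlier results of these data known.

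Alternatives were cyclic loess (limma 3.58.1, R 4.3.3, 3 iterations), quantile normalization, median centring, the median over probe sets, each probe set alone, no floor, a floor at the 75th percentile and a 3-fold threshold. Leaving out the Dap12-KO array with IL-4 was added after the data were seen. Counts were checked on simulated data. Python 3.11.15, numpy 2.4.6, pandas 2.3.3 and matplotlib 3.10.9 were used.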

Additional observations from a re-analysis of the deposited data

Results flagged for a closer look

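With IL-4, 2 pathway genes differed by over 1.5-fold in opposite directions in the 2 genotypes, and neither difference could be tested with 1 array per group. Camp, the cathelicidin gene, differed by 1.49 on the arrays labelled Dap12-KO and by −0.65 in WT, a gap of 2.14, with the WT value with IL-4 below the floor. Ccr2 differed by −1.29 on the arrays labelled Dap12-KO and by 0.80 in WT, a gap of −2.09, or −1.54 after cyclic loess. Of the other 3 Ccr2 probe sets, 2 had the same signs as this one in both genotypes, but 1 of these was below the floor on all arrays. The other of these differed by −0.52 on the arrays labelled Dap12-KO, or by −0.08 after cyclic loess. The probe set left was above the floor on all 4 arrays and higher with IL-4 in both genotypes.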

How the results depend on the processing

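No paired analysis was possible because each group held 1 array. A member's value is called moved here when it changed by over 1.5-fold, and a count when it changed by over 1.5 times. Fpr2 moved in none of its comparisons, and no member moved for IL-4 in WT or, by the probe set used, between the untreated arrays. For Gpr84, cyclic loess and quantile normalization gave 0.23 and 0.17 for IL-4 in Dap12-KO, 0.26 and 0.21 between the IL-4 arrays, and 2.61 and 2.63 for the difference of responses. For Cmklr1 they gave 0.55 and 0.49 for IL-4 in Dap12-KO and −0.36 and −0.41 between the IL-4 arrays, and cyclic loess gave 1.10 for the difference of responses. The other Cmklr1 probe set gave 0.76 with IL-4, a change of sign, and −0.42 untreated between genotypes, 0.64 for IL-4 in Dap12-KO and 1.18 for the difference of responses. The median over its probe sets gave −0.16 between the IL-4 arrays and −0.99 between the untreated arrays, where 2 members in place of 3 were lower. The 1 member lower between the IL-4 arrays became 0 under cyclic loess, quantile normalization, the median over probe sets and the 3-fold threshold. At 3-fold, 1 member was lower between the untreated arrays and 1 higher in the difference of responses. The cause of these changes was not tested. All genes higher and lower at 3-fold numbered 61 and 31 for IL-4 in WT, 243 and 568 for IL-4 in Dap12-KO, 91 and 138 between the untreated arrays, 456 and 530 between the IL-4 arrays, and 213 and 449 for the difference of responses. Genes lower at 2-fold numbered 755 and 1109 for IL-4 in Dap12-KO, 686 and 1002 between the IL-4 arrays and 716 and 1003 for the difference of responses under cyclic loess and quantile normalization. Genes higher with the 75th percentile floor, which tests fewer genes, numbered 329, 314 and 275 in these comparisons. The Dap12-KO array with IL-4 could be left out of 2 of the 5 comparisons, IL-4 in WT and the untreated genotypes, where its only effect is on the floor and the choice of probe set, so member values there could hardly change. The genes higher and lower were then 154 and 163, and 401 and 442. Over all settings 7 list medians moved and 173 did not. Signal near the floor limits what Fpr2 with IL-4, Ptafr and the dim Cmklr1 probe set can show.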
